A study of Homo sapiens with 3 samples.

Results

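Distal MYC peaks inside protein-coding genes are the peaks whose summit lay over 5000 bp from both ends of every RefSeq gene of any class and inside the span of at least 1 protein-coding gene. This held for 975 of 9818 peaks (9.93%, Wilson 95% interval 9.35 to 10.5), out of 1761 distal peaks in all. The rule uses only the positions of summits and genes, and no peak height or sequence. The peaks come from ChIP-Rx, chromatin immunoprecipitation and sequencing with foreign chromatin mixed in for scaling. The cells were parental U2OS, an established human osteosarcoma line, with no treatment or engineered genotype named. The series holds 2 libraries described as biological replicates and precipitated with an anti-MYC antibody (MYC IP) and 1 input library without antibody, all of chromatin from formaldehyde-fixed U2OS cells mixed with 10% mouse NIH3T3 cells. The authors deposited 1 peak list for these libraries, on hg38, which gives each summit a fold enrichment over control and a −log10 q-value. It holds no value per library. Differences between sets of peaks are therefore described without a test or a replicate error, at a depth that is unknown. Intervals below are Wilson 95% intervals for shares, or binomial rank intervals for medians, and cover counting error over peaks, genes or starts only.

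MYC is a transcription factor that binds DNA as a dimer with MAX, preferentially at the E-box CACGTG. It is known for occupying active promoters that are rich in CpG, and, at high levels, also enhancers. Many human genes have more than 1 promoter, and a promoter in use inside a longer annotated gene can lie far from both ends of that gene. A peak called distal by gene ends can therefore lie at an inner promoter, at an enhancer in an intron, or elsewhere, and the RefSeq start positions available here allow the first of these to be measured.

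Inner starts are RefSeq start positions inside a gene and away from its ends. Sequence was available for 300-base RefSeq windows, from 250 bases before each listed start to 50 from it on (GRCh38.p14), and 123 of the peaks had their summit inside such a window. The following stretches reach from 120 bases before the start to 30 bases from it on, and show the inner starts with the highest −log10 q whose window held the E-box CACGTG, written 5′ to 3′ with the E-box in capitals.

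AEN inner start (chr15:88621220-88621369, plus strand): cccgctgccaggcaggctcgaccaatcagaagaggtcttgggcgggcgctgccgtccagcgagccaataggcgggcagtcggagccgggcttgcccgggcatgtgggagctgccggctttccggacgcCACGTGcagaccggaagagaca
PES1 inner start (chr22:30591881-30592030, minus strand): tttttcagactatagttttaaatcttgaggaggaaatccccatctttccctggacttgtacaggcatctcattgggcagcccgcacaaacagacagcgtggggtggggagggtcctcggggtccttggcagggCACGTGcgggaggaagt
TMEM268 inner start (chr9:114611171-114611320, plus strand): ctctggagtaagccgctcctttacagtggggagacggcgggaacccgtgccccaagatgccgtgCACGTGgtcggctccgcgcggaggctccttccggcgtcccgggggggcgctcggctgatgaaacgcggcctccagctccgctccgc
RHBDD1 inner start (chr2:226835934-226836083, plus strand): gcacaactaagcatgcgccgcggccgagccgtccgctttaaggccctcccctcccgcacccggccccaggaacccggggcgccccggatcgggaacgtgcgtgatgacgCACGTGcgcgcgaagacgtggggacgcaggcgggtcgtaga
TUBA1C inner start (chr12:49264962-49265111, plus strand): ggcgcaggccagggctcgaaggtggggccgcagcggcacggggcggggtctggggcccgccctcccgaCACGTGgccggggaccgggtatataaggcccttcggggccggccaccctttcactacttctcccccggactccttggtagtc

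AEN, a p53-induced exonuclease gene, had its summit 26 bp downstream of this start and PES1, a ribosome biogenesis factor that works in a complex with BOP1, had its summit 13 bp upstream of it. In AEN the E-box lay 15.5 bp from the summit, in PES1 28.5 bp, in TMEM268 8.5 bp and in TUBA1C, an alpha-tubulin gene, 12.5 bp. In RHBDD1, a rhomboid protease gene, it lay 145.5 bp away. For comparison, these are the inner starts with the highest −log10 q whose 300-base window held no CACGTG.

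AHCY inner start (chr20:34302961-34303110, minus strand): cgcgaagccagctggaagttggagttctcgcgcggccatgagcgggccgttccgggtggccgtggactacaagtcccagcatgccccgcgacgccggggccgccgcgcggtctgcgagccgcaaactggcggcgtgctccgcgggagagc
URI1 inner start (chr19:29942119-29942268, plus strand): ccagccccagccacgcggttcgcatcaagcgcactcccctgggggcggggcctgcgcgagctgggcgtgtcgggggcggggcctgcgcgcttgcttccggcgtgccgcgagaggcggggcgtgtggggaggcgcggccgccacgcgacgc
C14orf39 inner start (chr14:60486034-60486183, minus strand): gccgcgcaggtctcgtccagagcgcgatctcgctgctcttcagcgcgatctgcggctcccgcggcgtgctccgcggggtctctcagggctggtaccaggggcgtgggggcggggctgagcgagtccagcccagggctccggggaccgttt
HNRNPH1 inner start (chr5:179623372-179623521, minus strand): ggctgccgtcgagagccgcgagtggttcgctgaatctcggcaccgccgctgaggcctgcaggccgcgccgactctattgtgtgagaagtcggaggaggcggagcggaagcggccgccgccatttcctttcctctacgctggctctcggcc
ERCC1 inner start (chr19:45423888-45424037, minus strand): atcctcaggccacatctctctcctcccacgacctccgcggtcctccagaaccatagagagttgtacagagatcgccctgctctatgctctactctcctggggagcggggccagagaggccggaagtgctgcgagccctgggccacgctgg

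AHCY encodes the hydrolase of S-adenosylhomocysteine, URI1 a prefoldin-like chaperone, HNRNPH1 a splicing regulator and ERCC1 a subunit of a DNA repair nuclease. Their summits lay 8 bp (AHCY), 113 bp (URI1), 40 bp (C14orf39) and 216 bp (HNRNPH1) upstream of the start shown and, in ERCC1, 16 bp downstream of it. HNRNPH1 has another listed start 54 bp from its summit. The outer starts of TUBA1C, AHCY, URI1, HNRNPH1 and ERCC1, at the 5′ end of the annotated span, had no MYC summit within 1000 bp. Those of TUBA1C, AHCY and URI1 read as follows.

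TUBA1C outer start (chr12:49227806-49227955, plus strand): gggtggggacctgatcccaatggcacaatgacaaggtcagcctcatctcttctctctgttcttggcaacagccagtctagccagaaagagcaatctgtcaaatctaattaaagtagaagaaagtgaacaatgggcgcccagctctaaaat
AHCY outer start (chr20:34311773-34311922, minus strand): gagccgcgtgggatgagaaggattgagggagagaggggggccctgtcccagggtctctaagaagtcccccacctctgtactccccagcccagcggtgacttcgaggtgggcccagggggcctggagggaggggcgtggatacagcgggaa
URI1 outer start (chr19:29923537-29923686, plus strand): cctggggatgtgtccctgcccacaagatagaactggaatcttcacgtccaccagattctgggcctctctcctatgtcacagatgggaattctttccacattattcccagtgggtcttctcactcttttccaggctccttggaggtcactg

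The inner starts of these 3 genes had a higher CpG content than the outer ones. In the 300-base window, CpG occurred at 0.743 times the number expected from base composition at the inner start of TUBA1C, against 0.123 at the outer start, which lay 6690 bp from any summit. The ratios were 1.14 at the inner and 0.0980 at the outer start of URI1. In AHCY they were 0.943 at the inner start and 0.594 at the outer one. For HNRNPH1 and ERCC1, whose outer starts are not shown, they were 1.02 and 0.445 at the inner start. At the outer start they were 0.389 and 0.245. The genes shown were taken from the strongest windows and are examples.

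A large minority of the distal peaks inside genes lay at an annotated inner start. RefSeq start positions were used on every chromosome analysed except 8, which left 934 of the 975 peaks. Of these, 270 (28.9%, 26.1 to 31.9) had a listed start within 1000 bp of the summit. The same window around listed starts covers 0.528% of the territory in which these peaks could lie. Among distal peaks outside protein-coding genes 3 of 731 (0.41%, 0.14 to 1.20) had a listed start as near. Listed starts belong to annotated genes, so few can lie outside gene spans. Of the 270 peaks, 269 had as their nearest start one of their own host gene. Host here means the protein-coding gene that spans the summit. For the 16 peaks that more than 1 such gene spans, values per peak use the gene with the nearest end, and counts of genes include every one of them.

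The summits were centred on these starts. The median distance was 150.5 bp, 37.4% of the summits lay within 100 bp and 240 within 500 bp. Along the direction of transcription 135 summits lay upstream of the start and 135 at or downstream of it, with quartiles of the signed distance at −150 and 149 bp. Beyond 1000 bp the peaks became sparse, and only 35 more had a start within 5000 bp. For the other 664 peaks the median distance to the nearest listed start was 31481 bp. Of these 664, 118 lay in a host for which no start was listed, so an unlisted start cannot be told from none.

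**Figure D1:**
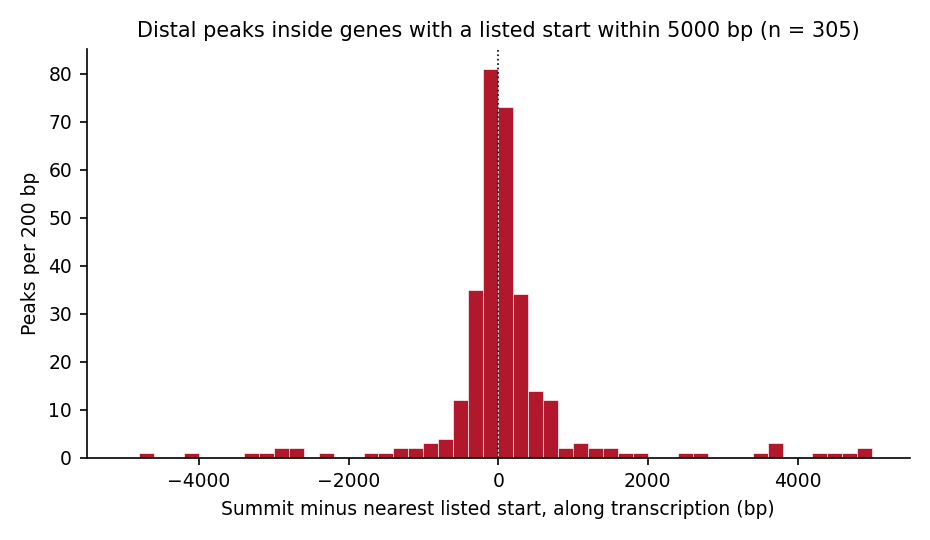
Number of distal MYC peaks inside protein-coding genes per 200 bp of signed distance from the nearest listed start, for the 305 peaks with a start within 5000 bp (x axis, bp along transcription; dotted line, the start). The 2 bars next to the start hold 81 and 73 peaks, and bars beyond 1000 bp hold at most 3.

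Over all 123 windows the inner starts under a MYC summit were GC-rich and rich in CpG. Their median GC content was 67.7% (quartiles 61.2 and 73.7) and their median CpG ratio 0.823, against 50.3% and 0.311 at the 2380 inner starts over 5000 bp from every gene end with no summit within 1000 bp, and 58.7% and 0.578 over all 34789 distinct windows. At the 3223 windows under a summit at the end of a protein-coding gene the medians were 67% and 0.891. Of the 123 windows 108 (87.8%, 80.9 to 92.5) had a GC content of at least 50% and a CpG ratio of at least 0.6, the customary limits for a CpG-rich stretch.

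The E-box CACGTG stood in 22 of the 123 windows (17.9%, 12.1 to 25.6), against 4.33% (3.58 to 5.22) of inner starts with no summit near, 16.8% (15.6 to 18.2) of windows under gene-end summits and 7.24% of the windows of all listed starts. In the 22 windows the median distance between summit and nearest E-box was 18 bp, and 17 lay within 50 bp. The peaks with an E-box in the window had a median fold of 10.7 (8.19 to 15.2, n = 22) and the other windows one of 7.38 (6.69 to 8.41). Where 100 bases to each side of the summit were known, CACGTG was found in 6 of 37 (16.2%, 7.65 to 31.1). All motifs were searched on both strands, and overlaps between motifs were not removed.

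The related element CACGCG was found in 29.3% (22 to 37.8) of the 123 windows. It stood in 26.1% of windows under gene-end summits, 5.92% of inner starts with no summit and 11.4% of all windows. The GC box GGGCGG was found in 75.6% (67.3 to 82.3), against 74.5%, 26.9% and 44.9%. CCAAT stood in 27.6% (20.5 to 36.1) of the 123 windows, against 31.8% under gene-end summits. It stood in 33.2% of inner starts with no summit and 34.6% of all windows. TGANTCA, the element of AP-1 factors, was found in 2.44% (0.83 to 6.93), GGAATG, the core of TEAD sites, in 8.94% (5.07 to 15.3), and CATGTG, an E-box without CpG, in 7.32% (3.90 to 13.3) of the windows. At inner starts with no summit these 3 elements were found in 10.9%, 15.6% and 14.9%. Under gene-end summits they were found in 3.26%, 8.59% and 6.30%. TGACGTCA, the cyclic AMP response element, stood in 2 of the 123 windows (1.63%, 0.447 to 5.74). Its share was 4.03% under gene-end summits, 1.13% at inner starts with no summit and 1.84% over all windows. Base composition differs between these sets and was not adjusted for. Sequence of the peaks away from listed starts was not analysed here.

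**Figure D2:**
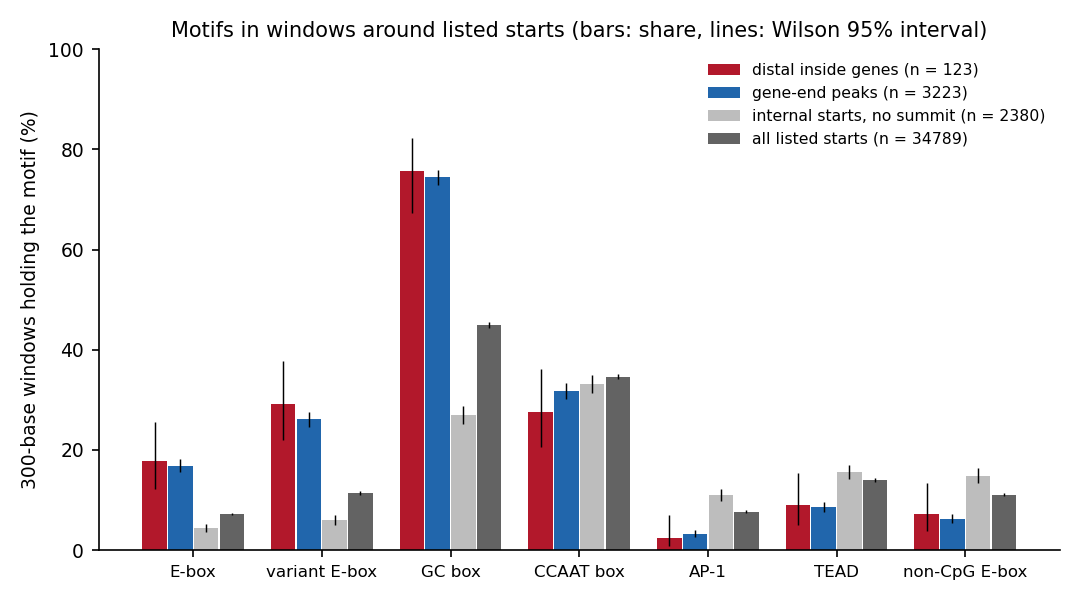
Share of 300-base windows around listed starts that hold each motif (y axis, %; bars, share; lines, Wilson 95% interval) for windows under distal peaks inside genes, windows under gene-end peaks, inner starts with no summit within 1000 bp and all listed starts. The E-box is CACGTG, the variant E-box CACGCG, the GC box GGGCGG, AP-1 TGANTCA, TEAD GGAATG and the non-CpG E-box CATGTG; the E-box share is 17.9% under distal peaks and 4.33% at inner starts with no summit.

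Seen from the starts, most listed inner starts had no MYC summit within 1000 bp. Of 2736 listed starts that lay over 5000 bp from every gene end and inside a protein-coding gene, 354 (12.9%, 11.7 to 14.2) had a summit within 1000 bp, against 43.0% (42.3 to 43.8) of 16825 starts at the 5′ end of a protein-coding gene and 28.6% of all listed starts. The share was 37.9% (34.5 to 41.4) in 757 inner starts that were CpG-rich by the limits above and 3.39% (2.68 to 4.28) in 1977 that were not. Among CpG-rich inner starts it was 51.8% (39.0 to 64.3, 29 of 56) where the window held CACGTG and 36.8% (33.3 to 40.4, 258 of 701) where it did not. Among the others it was 10.6% (5.67 to 18.9, 9 of 85) with the E-box and 3.07% (2.38 to 3.94) without.

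In some genes a summit lay at the inner start but not at the start at the 5′ end. Both an inner start and a start at the 5′ end were listed for 1129 protein-coding genes. A summit lay within 1000 bp of the inner start only in 82 of them (7.26%), at both in 57 (5.05%), at the 5′ end only in 322 (28.5%) and at neither in 668. CLN6, a gene mutated in a lysosomal storage disease, AHCY, URI1, HNRNPH1, ERCC1 and the receptor tyrosine kinase gene AXL were among those with the inner start alone. ING5, a chromatin reader, the ATP synthase subunit gene ATP5F1A, the helicase gene RUVBL1, the DNA replication factor gene CIZ1 and the amino acid transporter subunit gene SLC3A2 had summits at both. ERCC1 also had a summit within 1000 bp of its 3′ end. Of all 269 distal peaks at an inner start whose host strand was known, 78 (29.0%, 23.9 to 34.7) had a host with a summit at its 5′ end and 1 a host with a summit at its 3′ end.

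Distal peaks inside genes had a lower median height and width than peaks at gene ends, and slightly higher ones than distal peaks outside genes. Their median fold was 7.05 (6.81 to 7.33; quartiles 5.23 and 10.0), against 6.62 (6.33 to 6.88) for the 786 distal peaks outside protein-coding genes and 8.16 (8.04 to 8.30) for the 6387 gene-end peaks. Median −log10 q was 35.8, against 32.3 and 53.8, and median width 580 bp, against 535 and 814 bp. A fold of at least 10 was reached by 246 of the 975 peaks (25.2%), against 32.6% of all peaks in the list. A fold of at least 20 was reached by 30 (3.08%), against 6.97% of all peaks.

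The peaks at inner starts had the higher median height and width. Those 270 had a median fold of 7.53 (7.14 to 8.23), a median −log10 q of 41.1 and a median width of 784 bp, against 6.89 (6.58 to 7.18), 33.9 and 527 bp for the 664 peaks with no listed start near. Among the 934 peaks off chromosome 8, the share at an inner start was 68.0% (48.4 to 82.8) in the 25 with the highest −log10 q, 48.0% (38.5 to 57.7) in the highest 100, 29.0% (23.2 to 35.6) in the next 200 and 25.9% (22.6 to 29.4) in the remaining 634. It was 56.3% in the 128 peaks wider than 1000 bp and 14.7% in the 346 of at most 500 bp. By distance from the nearest gene end, it was 37.1% between 5000 and 10000 bp and 15% beyond 50000 bp.

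**Figure D3:**
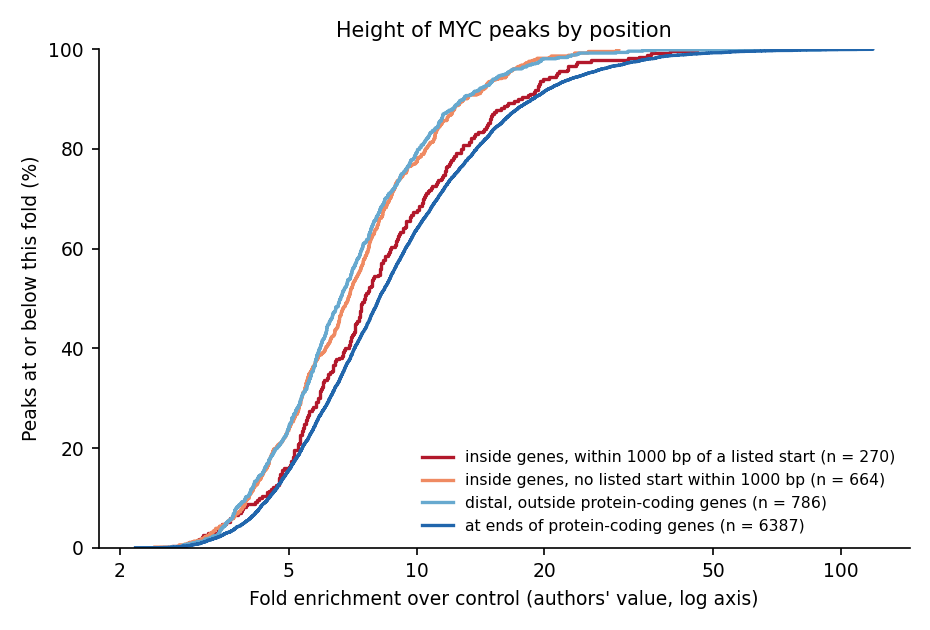
Cumulative share of peaks (y axis, %) by the authors' fold enrichment over control (x axis, log scale) for distal peaks inside genes with and without a listed start within 1000 bp, distal peaks outside protein-coding genes and gene-end peaks. The curve of inner-start peaks (median 7.53) lies between that of gene-end peaks (8.16) and those of the other distal peaks (6.89 and 6.62).

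Ranked by −log10 q, the first was the peak of the deubiquitinase gene USP32 (fold 22.8, −log10 q 799; chromosome 17, 60392120 to 60393449), and its summit was 375 bp upstream of an inner USP32 start. CLN6 followed with the highest fold of all members, 45.8 (−log10 q 752; chromosome 15, 68228937 to 68230202), 305 bp downstream of an inner start. AEN had a fold of 25.8 (chromosome 15, 88620802 to 88621890) and ING5 one of 35.0 (chromosome 2, 241701202 to 241702274), 504 bp upstream of its inner start. UBE2V2, a ubiquitin-conjugating enzyme variant, had a fold of 38.9 (chromosome 8, 48007891 to 48008867), and its starts were not used here. PES1 had a fold of 35.6 (chromosome 22, 30591473 to 30592423), near the middle of its span. Of these 6, the 5 with start positions all lay within 1000 bp of one.

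Next by −log10 q stood AHCY (fold 19), the peak shared by the overlapping spans of THNSL1 and ENKUR (39.5, 344 bp downstream of a THNSL1 start), the Krüppel-like factor gene KLF16 (33.3) and URI1 (19.9). The meiosis gene C14orf39 (14.7) also lay at an inner start. EHD2, an ATPase gene of caveolae (fold 29.9; chromosome 19, 47718912 to 47719918), AMZ1 and the overlapping G protein gene GNA12 (18.9), MNT (29.5) and SGSM1 (13.2) complete the 15 highest and had no listed start within 1000 bp. MNT encodes a MAX partner that represses MYC targets. Its peak (chromosome 17, 2392531 to 2394189) lay 7150 bp inside from the 5′ end of a span of 16988 bp, neither end of which had a summit. Of the 15 highest members, 10 lay at a listed start. The 10 highest by fold add ATP5F1A (31.5) and MERTK, a receptor tyrosine kinase gene, with a fold of 29.6 at 76608 bp from its 5′ end and no listed start nearer, and 6 of these 10 lay at a start.

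**Figure D4:**
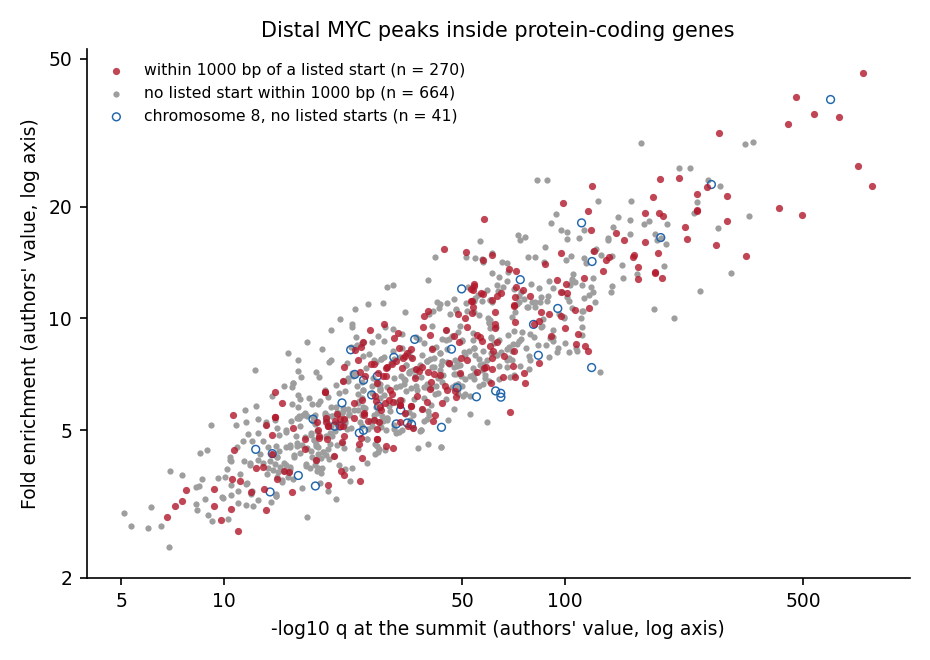
The authors' fold enrichment (y axis, log scale) against −log10 q at the summit (x axis, log scale) for the 975 distal peaks inside protein-coding genes, 1 point each, coloured by whether a listed start lay within 1000 bp; open circles are the 41 peaks on chromosome 8, where no starts were used. Both values rise together, and 16 of the 30 peaks of 20-fold or more lie at a listed start.

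Most hosts had no MYC summit at either end. A summit lay within 1000 bp of an end of the host for 308 of the 975 peaks (31.6%, 28.7 to 34.6). Counted by gene, 271 of 843 hosts (32.1%, 29.1 to 35.4) had a summit at an end, against 42.5% (41.7 to 43.3) of the 13473 genes over 10000 bp without a distal peak. By length the shares were 41.4% (34.3 to 48.8) in hosts and 43.5% in other genes between 10000 and 50000 bp, 31.5% (27.3 to 36.1) and 43.3% between 50000 and 200000 bp, and 26.6% (21.5 to 32.5) and 32.6% above. Peaks whose host had a bound end had a median fold of 7.32 (6.65 to 7.63) and those whose host had none one of 6.99 (6.70 to 7.25). Where the strand was known, the bound end was the 5′ end for 258 of 815 peaks and the 3′ end for 13.

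Along the host, the peaks leaned to the 5′ side. Of 815 peaks with a known strand, 26.5% lay between 20% and 40% of the way from the 5′ end and 13.4% in the last 20%, where 21.9% and 16.7% of the eligible positions lie. Peaks at inner starts had 26.4% and 28.6% in the first and second stretches of 20% and 6.69% in the last. Peaks without a listed start near had 15.9%, 25.5% and 16.7% there, against 16.9%, 21.9% and 16.7% of eligible positions. The median host was 123042 bp long, and the nearest gene end was a median of 15612 bp, and at most 240900 bp, from the summit.

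A larger share of long genes held such a peak, and long genes also have more distal territory in which one can lie. A gene of 10000 bp or less cannot hold one by construction. Of the 14316 longer protein-coding genes 843 (5.89%) held at least 1, or 4.22% of protein-coding genes of any length. The share was 0.842% between 10000 and 20000 bp and 7.02% between 50000 and 100000 bp. It was 11.3% between 100000 and 200000 bp and 17.5% (15.6 to 19.6) above 200000 bp. The density was 1.01 peaks per Mb of distal territory inside protein-coding genes (964.3 Mb), against 0.574 per Mb in distal territory outside them. Assembly gaps and bases where reads cannot be placed were not taken out of either territory. By chromosome the density inside genes ranged from 0.272 per Mb on the X to 2.70 per Mb on chromosome 19, with 2.24 and 2.17 on chromosomes 17 and 22. Per 100 protein-coding genes over 10000 bp the order differed, with 4.73 peaks on chromosome 19, 9.12 on chromosome 10, the highest, and 2.12 on the X, the lowest.

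Counts over 22 gene lists are given as a description, without a test, beside the background of 5.89% of genes over 10000 bp and of 1.01 peaks per Mb. Genes of the actin cytoskeleton and focal adhesions held a distal peak in 10 of 36 cases (27.8%, 15.8 to 44.0; 2.27 peaks per Mb). They included the adhesion scaffold genes BCAR1 (highest fold 9.48) and PXN (10.7) and the actin-binding protein gene LIMA1 (14.6). Genes of TGF-beta and BMP signalling did so in 6 of 24 cases (25.0%, 12 to 44.9; 3.26 per Mb), with the inhibitory SMAD6 (10.0), the signal transducer SMAD3 (7.49) and the latent TGF-beta binding protein LTBP2 (4.70), and the median over the 6 hosts of the highest fold was 4.46. Transcription factors of the RUNX, FOX, ETS, NFI and related families did so in 9 of 32 (28.1%, 15.6 to 45.4; 2.40 per Mb), led by NFIC (18.7), RUNX2 (14.6), the master regulator of bone formation, and NFIB (9.29). The genes of these lists are long, with a median length of 155045 bp for actin and adhesion genes, 93535.5 bp for TGF-beta genes and 137392 bp for the transcription factors.

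Glucose and lipid metabolism genes held a distal peak in 6 of 31 cases (19.4%, 9.19 to 36.3; 4.86 per Mb) although their median length was 44358 bp. Among them were PFKFB3, which makes the activator of phosphofructokinase (19.2), the phosphatidate phosphatase gene LPIN1 (25.4) and the glucose transporter gene SLC2A1 (11.8). None of these 3 peaks lay at a listed start. Receptor tyrosine kinase and RAS genes did so in 5 of 31 (16.1%, 7.09 to 32.6), with AXL (15), EPHA2 (6.55) and IGF1R (5.85). WNT genes did so in 4 of 22 (18.2%, 7.31 to 38.5). They included TCF7L2 (15.3), the effector factor of the pathway, its receptor gene LRP5 (7.77) and AXIN1 (5.71). These 2 lists had median lengths of 104414 and 75000 bp, with 2.63 and 2.15 peaks per Mb. Of all genes, 11.3% between 100000 and 200000 bp and 7.02% between 50000 and 100000 bp held a peak. Extracellular matrix and osteoblast genes did so in 3 of 30 (10.0%, 3.46 to 25.6), among them RUNX2 and LOXL2 (5.19). Hippo genes did so in 3 of 24 (12.5%, 4.34 to 31.0), with FRMD6 (7.07), VGLL4 (6.51) and AMOTL1 (4.81). The intervals of the matrix and Hippo lists include the background of 5.89%.

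Lists near the background share of genes included ribosome biogenesis (2 of 37, PES1 and BOP1 with 7.95) and textbook MYC targets (1 of 20, BOP1). Their median lengths were 33708 and 26382 bp, and 3.08% of all genes between 20000 and 50000 bp held a peak. Splicing and RNA processing (2 of 32, PTBP3 with 9.45 and TNRC6A with 6.38) was also near the background share. So were ubiquitin ligases and deubiquitinases (2 of 35, USP32 and USP48 with 7.28). PI3K and mTOR genes (1 of 22, RPTOR with 7.73), nuclear lamina and chromosome structure genes (1 of 26, LMNA with 8.71) and chromatin remodellers (2 of 28, ARID1B with 12.1 and CHD9 with 4.47) stood there too. Chromatin modifiers had 3 of 34, ING5, KDM2A (10.3) and KDM4C (9.46), all at inner starts. DNA replication and repair had 3 of 34, among them XRCC5 (17.3) and RAD51B (10.4). Amino acid and nucleotide metabolism had 3 of 29, SLC3A2 (13.3), the asparagine synthetase gene ASNS (8.55) and CTPS1 (13.2), and nuclear receptors and corepressors 3 of 23, among them PPARD (12.3) and THRA (8.56). Of p53-activated genes 2 of 18 held one, AEN and SESN1 (6.32), and of AP-1 and immediate early factors 1 of 6, ATF3 (11.2). Synaptic and neuronal adhesion genes had 4 of 33 (12.1%), with folds of 20.7 in NRXN3, 8.31 in DLGAP1, 6.91 in CDH13 and 6.64 in LRRC4C, but the lowest density of any list, 0.194 per Mb, at a median length of 1113630 bp. Wilson intervals were wide throughout, and those of the lists in this paragraph all include 5.89%.

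**Figure D5:**
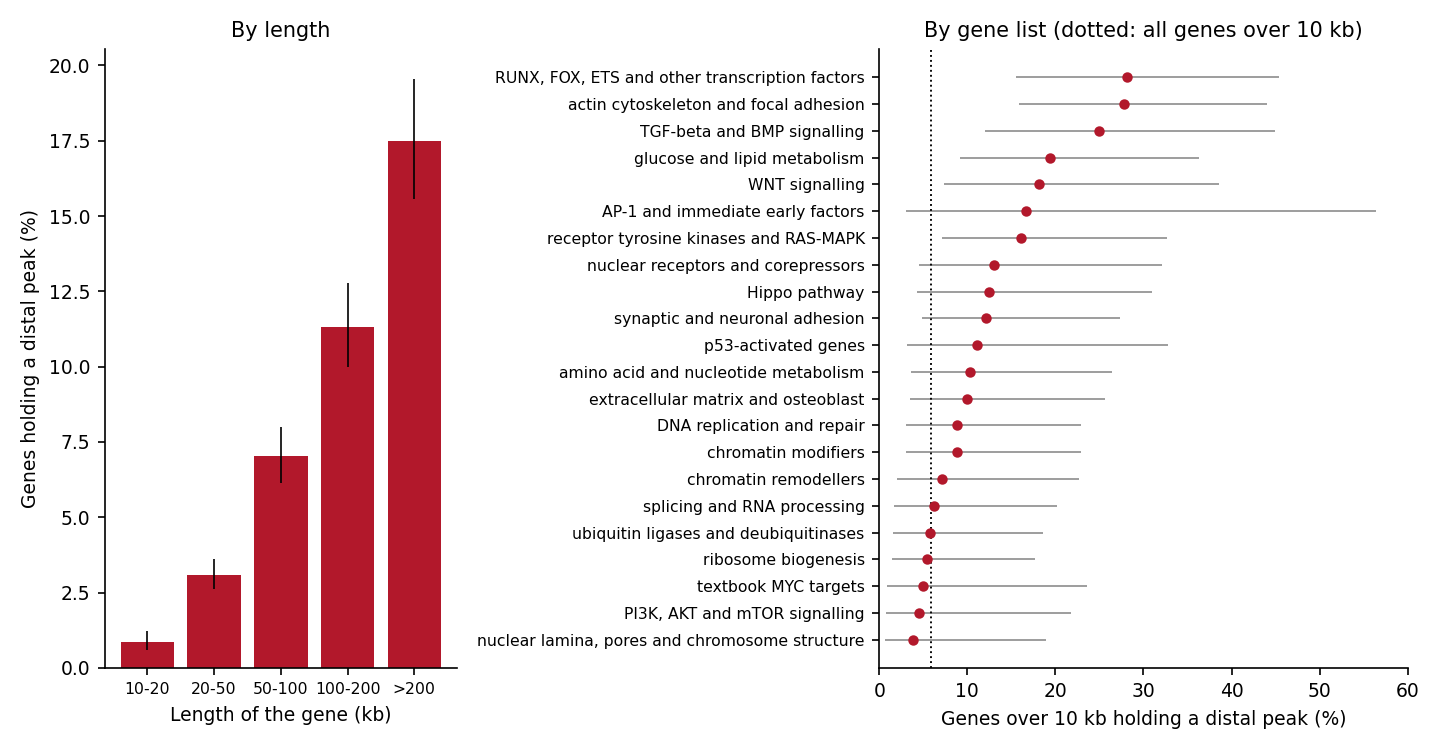
Left, share of protein-coding genes that hold a distal MYC peak (y axis, %) by gene length (x axis, kb); right, the same share of genes over 10 kb for each of 22 gene lists (x axis, %), with Wilson 95% intervals as lines and 5.89%, the share over all such genes, dotted. The share is 0.842% at 10 to 20 kb and 17.5% above 200 kb, and the 3 lists of transcription factors, adhesion and TGF-beta genes lie between 25.0% and 28.1%.

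Most hosts held 1 peak, and 106 held 2 or more. GSE1, which encodes a corepressor complex component, held 6 over 430728 bp, with folds between 4.23 and 10.8, the highest at an inner start. NFIC, a nuclear factor I gene, held 5 with folds of 18.7, 7.70, 8.40, 12.7 and 4.07 from low to high coordinate, none at a listed start. ZNF469 held 5 (3.14 to 8.48), TENM3, a teneurin adhesion gene, 5 (5.15 to 8.03) and LRMDA 4 (4.23 to 15.1). Of the 27 genes with 3 or more, 10 had a summit at an end. Another MYC summit lay within 10000 bp of 130 of the 975 peaks, and the median distance to the next summit was 49546 bp.

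The folds of the peaks next to the limit of 5000 bp overlapped between both sides. Just inside it lay peaks in ROBO3 (5003 bp, fold 5.91), SHISA5 (5004 bp, 5.13), ITPA (5019 bp, 9.46), COL2A1 (5062 bp, 6.95) and ACAT1 (5062 bp, 7.30). Just outside it lay peaks in AHNAK2 (4978 bp, fold 6.64), NXN (4961 bp, 7.71), GALNT2 (4948 bp, 16.5), LSM5 (4930 bp, 8.97) and CDA (4925 bp, 7.73).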

How the data were processed

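The authors deposited 1 peak list, per its columns in narrowPeak order, for 2 MYC IP libraries and 1 input. The submitters' processing notes name the tools MACS2, Picard, SAMtools, Bowtie2 and cutadapt and the builds hg38, hg19 and mm10, without versions, settings or roles. The deposited fold is a linear ratio over control and the deposited −log10 q is that of the summit. The deposited score, nearly always 10 times the −log10 q without decimals, was not used. The role of mouse reads in scaling, and any pooling of IP libraries, is not given in the sources used here.

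Gene spans (59098 genes, 19974 protein-coding) and start positions with strand and sequence (34961 starts, for 15812 of the protein-coding genes) came from RefSeq on GRCh38.p14. Classes, distances, shares and motifs were computed with Python 3.11.15, pandas 2.3.3 and scipy 1.17.1, and were checked on simulated data. Exons and introns were not used here. Starts could not be split by curation, and E-boxes were read only in windows around starts.

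Members and gene lists were chosen with earlier results of these data known. Genes named are the 15 highest members by −log10 q, the 10 highest by fold, the 5 hosts with most members, the 3 highest hosts of each list (a few are not reported here) and the 5 peaks to either side of the distance limit. Genes shown as sequences or as examples of inner starts were named after their values were seen, as was the split of starts by CpG content.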

Additional observations from a re-analysis of the deposited data

How the results depend on the processing

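Of 42 values under other settings 31 stayed within 1.5 times the count or within the interval reported. For the E-box share that interval was wide (7.65 to 31.1), so a share of 8.70% counted as within it. The median −log10 q is on another scale than fold and was counted as outside. In 5 settings the median fold stayed between 6.89 and 7.15; it was 11.1 in the stronger 50% of peaks by −log10 q, and the median −log10 q in its place was 35.8. In the stronger 50% there were 376 peaks in 361 hosts, and CACGTG stood within 100 bases of 31.3% of summits (16 windows), against 8.70% (23 windows) with a limit of 10000 bp and 16.2% (37 windows) as reported. Limits of 2000 and 10000 bp gave 1235 and 681 peaks. The share at an inner start was 25.4% with a limit of 10000 bp, 36.0% with ends of protein-coding genes alone, 34.2% in the stronger 50% and 25.7% with a window of 500 bp. The share with a bound host end was 26.5% and 38.3% with windows of 500 and 5000 bp. The whole-window E-box share was added after seeing the data. Curated starts alone and 250 bases to each side of the summit were not run, as the sequences used do not hold them. No paired analysis was possible because the list holds no value per replicate, and for the same reason no replicate could be left out. Depth is unknown, so no floor can be set for peaks not called.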

Other observations

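Overlapping hosts were rare: 16 of the 975 distal peaks inside genes lay in the spans of more than 1 protein-coding gene, among them THNSL1 with ENKUR, UHRF1 with ARRDC5 and ATG7 with VGLL4. Of the 270 peaks at inner starts, 65 had 2 or more listed starts within 1000 bp, and 1 had starts on both strands. Of 73 inner starts of long noncoding genes 1 had a summit within 1000 bp, against 353 of 2663 inner starts of protein-coding genes (13.3%, 12 to 14.6). The 41 peaks on chromosome 8, where no starts were used, had a median fold of 6.28 (5.35 to 7.86), and ANK1 there held 3 with a highest fold of 22.9. These pairs and counts were named after their values were seen.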
